A study of Mus musculus with 6 samples.

Results

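Rnf10 and 9 further genes of 40S ubiquitination were followed by ribosome footprints in MIN6, a line of insulin-secreting cells established from a beta-cell tumour of the mouse pancreas. The members were the rows of the count table named Rnf10, Zfp598, Rnf14, Rnf25, Usp10, Usp21, Otud3, G3bp1, G3bp2 and Riok3, and all 10 were found among the 21652 genes listed. Cells carried sgLTN1, a CRISPR guide against Ltn1, or sgNT, read here as a control guide with no target, with 3 libraries in each group and no further treatment named. The labels name neither a clone nor a pool of cells, and they do not give the cultures behind the libraries. The p-values therefore rest on differences between libraries that may be technical replicates.

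Ribosomes that stall or collide are marked with ubiquitin on proteins of the small (40S) subunit. In human cells, RNF10 places ubiquitin on uS3 and uS5, the products of RPS3 and RPS2, and ZNF598, the human counterpart of Zfp598, marks eS10 and uS10 on collided ribosomes. RNF14 and RNF25 act together when a factor is trapped in the ribosomal A site. The deubiquitinases USP10, USP21 and OTUD3 remove these marks, G3BP1 works with USP10, and the kinase RIOK3 recognises ubiquitinated 40S subunits that are to be degraded. The title of the series connects the ligase LTN1 with the RNF10 level and with uS3 ubiquitination. Footprints report how many ribosomes sit on all copies of an mRNA together and measure neither of these. From footprints alone, less mRNA and fewer ribosomes on each mRNA cannot be told apart.

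Library depth was between 4993245 and 11198735 counts in sgLTN1 and between 4373467 and 7802364 counts in sgNT. Footprints on Ltn1, which encodes the E3 ligase Listerin of ribosome-associated quality control, were 65.3, 71.4 and 64.9 CPM (counts scaled to a common library size after TMM) in sgLTN1 libraries 1 to 3, against 143, 145 and 141 CPM in sgNT libraries 1 to 3. The sgLTN1 mean was 0.469 of the sgNT mean, so each library matched its label. Of 15 beta-cell markers 14 had enough counts to be tested, with a summed level of 160500 to 180600 CPM in sgLTN1 and 154700 to 168600 CPM in sgNT; the glucose transporter gene Slc2a2, with under 1 CPM on average in both groups, was the exception. Acinar, duct and endothelial markers each summed to under 5 CPM in all libraries. Fibroblast markers summed to 7.60 to 12.3 CPM in sgLTN1 and 11.5 to 11.9 CPM in sgNT, and immune markers, nearly all of it Cd68, to 25.7 to 28.9 CPM in sgLTN1 and 28.5 to 35.3 CPM in sgNT. Alpha-cell markers, nearly all of it Gcg, summed to 537 to 608 CPM in sgLTN1 and 553 to 581 CPM in sgNT. Delta-cell markers, nearly all of it Sst, summed to 41.4 to 48.7 CPM in sgLTN1 and 30.5 to 33.0 CPM in sgNT, and the part of these differences in the results below was not tested. In bulk libraries, fewer cells of a type and less RNA per cell cannot be told apart.

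None of the 10 genes passed an adjusted p of 0.05 when sgLTN1 was set against sgNT with the quasi-likelihood test of edgeR, where 0.18% of the 12782 tested genes did (23 genes). Rnf10 was the only member with an unadjusted p under 0.05, a level reached by 15.6% of all tested genes. DESeq2 and limma voom also called 0 members, with Rnf10 alone under an unadjusted p of 0.05 in each, though DESeq2 gave an adjusted p to only 2 of the members. Other settings changed how many members had an unadjusted p under 0.05. There were 3 with scaling to total counts (Rnf10, G3bp1 and G3bp2), 2 with the abundance trend removed (Rnf10 and G3bp2), 2 without sgNT library 2 (Rnf10 and Usp21) and 0 without sgLTN1 library 2. By log2 fold change, 6 members were below 0 and 4 above, with a median of -0.12, against a median of -0.02 and 52.7% below 0 over all tested genes. Usp21, among those above, met the count minimum in 3 sgLTN1 libraries and 1 sgNT library, so the filter favoured its sign. With no filter on low counts, 6 members were also below 0. In 4 of the 10 the 3 libraries of one group all lay outside the range of the other, where 20.2% of all tested genes showed this. Rnf10, G3bp1 and G3bp2 had their sgLTN1 libraries below all sgNT libraries (10.1% of all tested genes), and Zfp598 had them above (10.1% of all tested genes). These 4 separations were also present with DESeq2 size factors and with scaling to total counts. With total counts the gap nearly closed for Zfp598, at 10.1 CPM in the lowest sgLTN1 library against 10.0 CPM in the highest sgNT library. For Rnf10, G3bp1 and G3bp2 the gap was wider with total counts than with TMM.

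**Figure D1:**
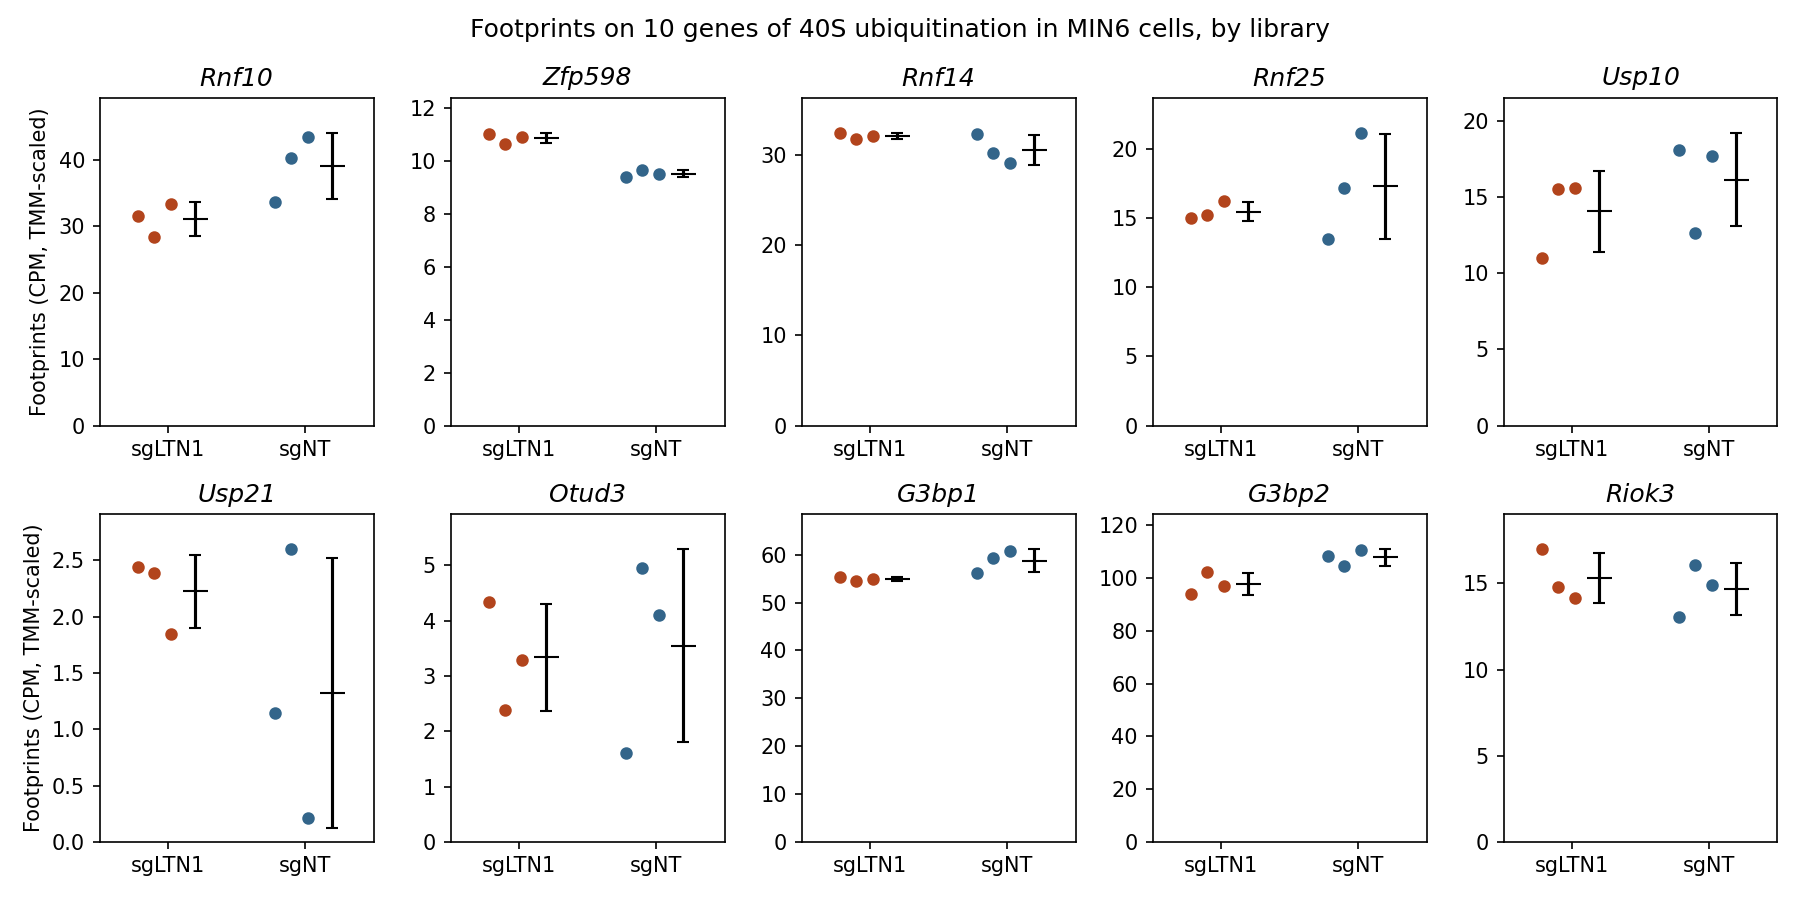
Footprints on each of the 10 genes, in TMM-scaled CPM on an axis that starts at 0; points are libraries 1 to 3 from left to right, sgLTN1 in orange and sgNT in blue, and bars give mean ± SD (n = 3 per group). The sgLTN1 points of Rnf10 lie between 28.3 and 33.3 CPM, all below the sgNT points, and those of Zfp598 between 10.6 and 11.0 CPM, all above.

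Among the ligases, Rnf10 (ENSMUSG00000041740.17) had the smallest p. Its footprints were 31.6, 28.3 and 33.3 CPM in sgLTN1 libraries 1 to 3, against 33.7, 40.2 and 43.4 CPM in sgNT libraries 1 to 3. The groups did not overlap, but the highest sgLTN1 library (library 3) came within 1 CPM of the lowest sgNT library (library 1). Behind these values stood 350, 261 and 162 counts in sgLTN1 and 147, 325 and 201 counts in sgNT. The means were 31.1 ± 2.51 CPM in sgLTN1 and 39.1 ± 4.93 CPM in sgNT (SD, n = 3 each), a log2 fold change of -0.34 (SE 0.11) with a 95% interval of -0.58 to -0.11. On the linear scale, this interval runs from 0.669 to 0.929 of the sgNT level. In the edgeR fit its unadjusted p was 0.00868, and its p adjusted over all tested genes by the Benjamini-Hochberg method was 0.177. By p it stood at rank 625 of the 12782 tested genes. Its fold change lay at percentile 9.91 of those of all tested genes. The authors' deposited table gave Rnf10 a log2 fold change of -0.32 (SE 0.15) with an unadjusted p of 0.0314 and an adjusted p left as NA. The DESeq2 alternative run here on the same counts gave these same values, so the deposited values and that alternative are not separate results.

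The spread of Rnf10 within sgNT, a coefficient of variation of 12.6%, was wider than the 7.04% that counting alone gives at these depths. In sgLTN1 the corresponding values were 8.09% and 6.55%. The log2 fold change stayed below 0 when any single library was left out, between -0.41 without sgNT library 1 and -0.26 without sgLTN1 library 2. The adjusted p over these 6 fits was between 0.0927 and 0.53. In all of the 13 other ways of processing the counts it stayed below 0. It did not pass the threshold in the 12 that gave it an adjusted p, and DESeq2 gave it none.

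**Figure D2:**
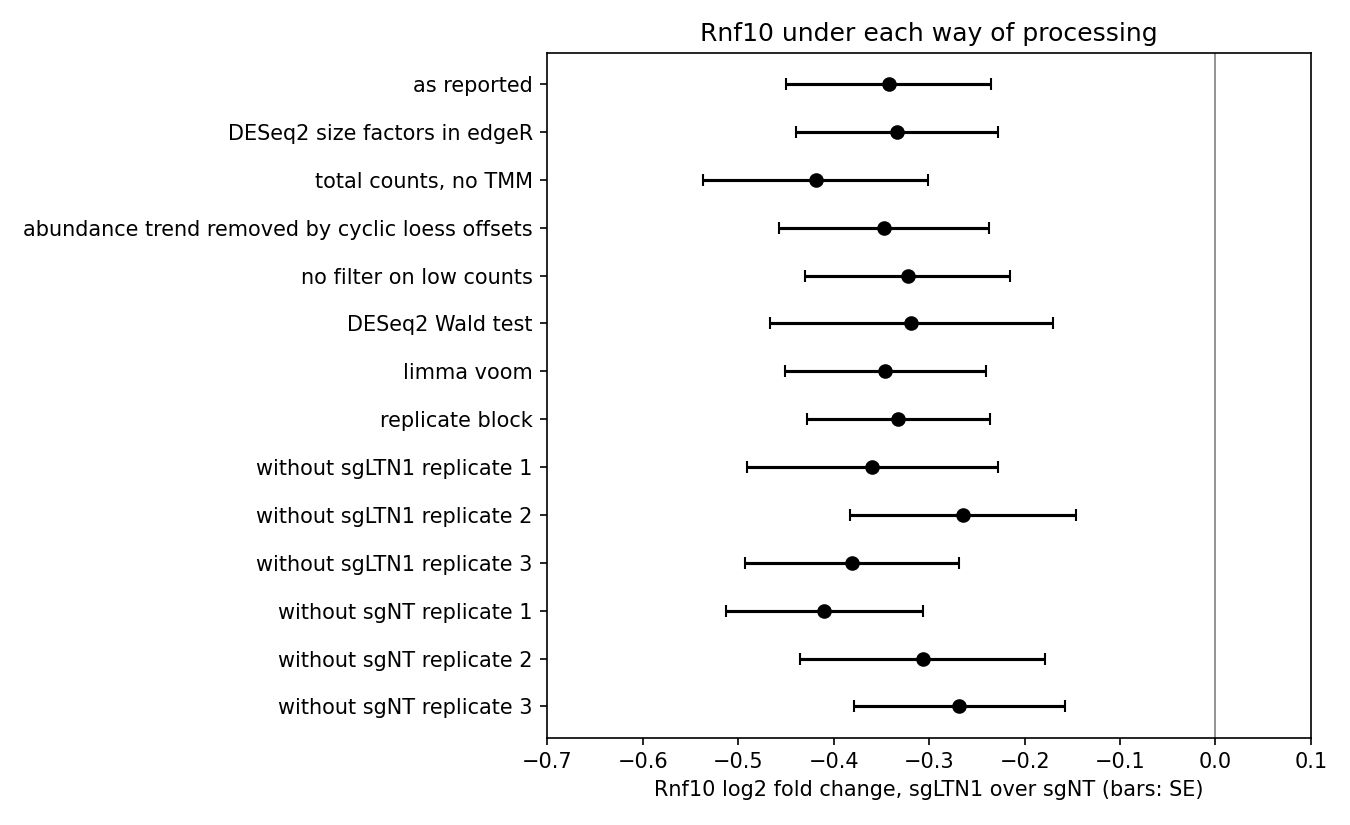
Log2 fold change of Rnf10, sgLTN1 over sgNT, as reported and under 13 alternatives (scaling, filter, test, replicate block and each library left out); points are fitted values and bars standard errors. Points lie between -0.42 and -0.26, all on the lower side of 0.

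Zfp598 (ENSMUSG00000041130.11), the ligase gene for collided ribosomes, had 11.0, 10.6 and 10.9 CPM in sgLTN1 libraries 1 to 3, against 9.40, 9.65 and 9.49 CPM in sgNT libraries 1 to 3. Each sgLTN1 library was above each sgNT library. The log2 fold change was 0.19 (SE 0.13, 95% interval -0.09 to 0.46) with an adjusted p of 0.551 in edgeR's quasi-likelihood test. With scaling to total counts this value was 0.11 (SE 0.13, adjusted p of 0.729). Only 273 counts in sgLTN1 and 163 in sgNT stood behind these values in total. Replicates differed by a coefficient of variation of 1.75% in sgLTN1 and 1.33% in sgNT, less than the 11.2% and 14.1% that counting alone gives. The standard error and interval of Zfp598 may therefore be too narrow.

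The A-site pair showed no separation of the groups. Rnf14 (ENSMUSG00000060450.15), a RING-between-RING ligase, read 32.4, 31.7 and 32.1 CPM in sgLTN1 and 32.3, 30.2 and 29.1 CPM in sgNT. Its log2 fold change was 0.07 (SE 0.08, 95% interval -0.11 to 0.26, adjusted p of 0.737 in edgeR's test). The interval for Rnf14 leaves room for a fold between 0.925 and 1.19. Rnf25 (ENSMUSG00000026171.13), whose human counterpart ubiquitinates a protein of the 40S subunit, read 15.0, 15.2 and 16.2 CPM in sgLTN1 and 13.5, 17.2 and 21.1 CPM in sgNT. The sgNT libraries of Rnf25 spread on both sides of all 3 sgLTN1 libraries, and the log2 fold change was -0.17 (SE 0.14, adjusted p of 0.623). Without sgNT library 3, the highest, this value was -0.02, and without sgNT library 1, the lowest, it was -0.28 (adjusted p of 0.349). Pcdh12 overlaps Rnf14, and Stk36 overlaps Rnf25, in the RefSeq table; the count table holds 24 counts for Pcdh12 and 254 for Stk36 over all 6 libraries, and reads of overlapping genes cannot be told apart if strand was not used in counting.

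Of the deubiquitinases, Usp10 (ENSMUSG00000031826.21), the enzyme that reverses the RNF10 mark in human cells, read 11.0, 15.5 and 15.6 CPM in sgLTN1 libraries 1 to 3. In sgNT libraries 1 to 3 it read 18.1, 12.6 and 17.7 CPM. One library in each group was low, sgLTN1 library 1 and sgNT library 2, and the groups overlapped. The means were 14.1 ± 2.63 CPM in sgLTN1 and 16.1 ± 3.06 CPM in sgNT (SD, n = 3 each), with a log2 fold change of -0.19 (SE 0.18, 95% interval -0.59 to 0.21, adjusted p of 0.671 in edgeR's test). The interval of Usp10 covers the fitted value of Rnf10. Leaving out sgLTN1 library 1 gave Usp10 a log2 fold change of -0.02, and leaving out sgNT library 2 gave -0.36.

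Usp21 and Otud3, the deubiquitinases known to act against ZNF598, were at the edge of detection. Usp21 (ENSMUSG00000053483.16) had 27, 22 and 9 counts in sgLTN1 and 5, 21 and 1 counts in sgNT. It met the count minimum in 3 sgLTN1 libraries and 1 sgNT library. The log2 fold change of 0.58 (SE 0.49) had a 95% interval of -0.50 to 1.65, and an adjusted p of 0.628 in edgeR's test. That value was 1.76 without sgNT library 2 and 0.17 without sgNT library 3. Otud3 (ENSMUSG00000041161.9) had 48, 22 and 16 counts in sgLTN1 and 7, 40 and 19 counts in sgNT, a log2 fold change of -0.15 (SE 0.36, adjusted p of 0.892). The sign of Otud3 turned without sgLTN1 library 2 (0.08) and without sgNT library 2 (0.24). The 95% intervals of these 2 genes, for Otud3 -0.94 to 0.63, cover a rise and a fall by the size seen for Rnf10. Rnf10 itself did not pass the threshold at that size, and no detection limit was computed for any member.

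**Figure D3:**
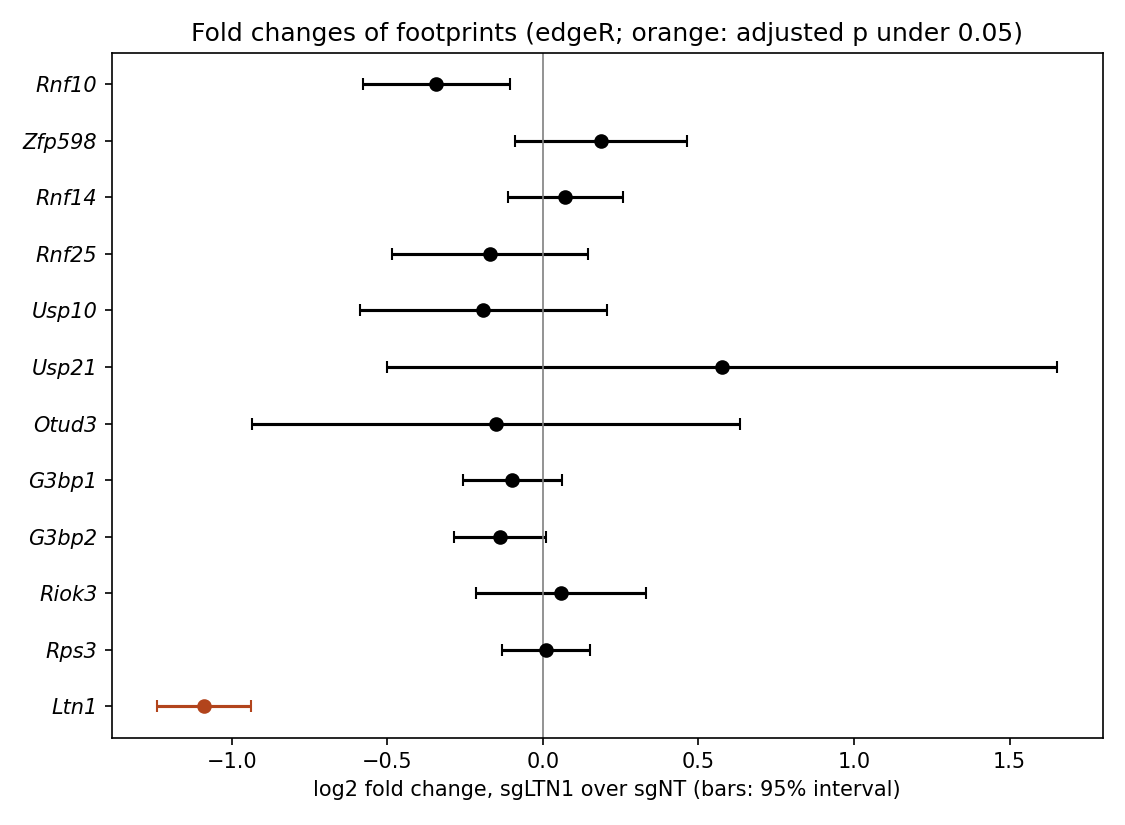
Log2 fold changes, sgLTN1 over sgNT, with 95% intervals from edgeR for the 10 genes, for Rps3 and for Ltn1 (orange, the only one of the 12 past an adjusted p of 0.05). The interval of Rnf10, -0.58 to -0.11, does not reach 0, and those of the other 9 members do; Usp21 has the widest, -0.50 to 1.65.

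G3bp1 and G3bp2 encode paralogous RNA-binding proteins that nucleate stress granules, and both were lower in every sgLTN1 library than in any sgNT library by a small margin. G3bp1 (ENSMUSG00000018583.6) read 55.3, 54.6 and 54.9 CPM in sgLTN1 libraries 1 to 3, against 56.2, 59.3 and 60.8 CPM in sgNT libraries 1 to 3. Its log2 fold change was -0.10 (SE 0.07, 95% interval -0.26 to 0.06, adjusted p of 0.568 in edgeR's test). The sgLTN1 libraries of G3bp1 agreed within 0.666% (coefficient of variation), below the 4.96% of counting error. G3bp2 (ENSMUSG00000029405.17) read 94.1, 102 and 97.0 CPM in sgLTN1 libraries 1 to 3, against 108, 104 and 110 CPM in sgNT libraries 1 to 3. Its log2 fold change was -0.14 (SE 0.07, 95% interval -0.29 to 0.01, unadjusted p of 0.0656, adjusted p of 0.355 in edgeR's test). These were the best measured of the 10 genes, with 1383 counts in sgLTN1 and 1006 in sgNT for G3bp1 and 2457 and 1829 for G3bp2, and their 95% intervals with TMM scaling begin at 0.837 and 0.82 of the sgNT level. With scaling to total counts, which moved the median of all tested genes to -0.09, the log2 fold change was -0.17 (SE 0.08) for G3bp1 and -0.21 (SE 0.07) for G3bp2, over 1.5 times the values with TMM, with adjusted p of 0.295 and 0.149 in edgeR's test. In the authors' deposited table they were the only members with an adjusted p, 0.73 for G3bp1 and 0.477 for G3bp2.

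Riok3 (ENSMUSG00000024404.8), the kinase gene that stands downstream of the mark, read 17.0, 14.8 and 14.2 CPM in sgLTN1 and 13.1, 16.1 and 14.9 CPM in sgNT. The groups overlapped. The log2 fold change was 0.06 (SE 0.12, 95% interval -0.21 to 0.33, adjusted p of 0.874 in edgeR's test), and it turned to -0.02 with scaling to total counts and to -0.03 without sgLTN1 library 1.

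Ratios of counts within a library do not depend on how libraries are scaled, and they were used to set Rnf10 beside its partners. They carry no correction for gene length, so only their difference between libraries is read. The ratio of Rnf10 to Zfp598 was 2.87, 2.66 and 3.06 in sgLTN1 libraries 1 to 3, against 3.58, 4.17 and 4.57 in sgNT libraries 1 to 3. The ratio of Rnf10 to Rps3, which encodes its substrate uS3, was 0.151, 0.137 and 0.15 in sgLTN1 and 0.169, 0.185 and 0.201 in sgNT. Both ratios were lower in all sgLTN1 libraries than in any sgNT library, as was the ratio to Rnf14, with a mean of 0.969 ± 0.0725 in sgLTN1 and 1.29 ± 0.226 in sgNT (SD, n = 3 each). The separation of the ratio to Zfp598 follows from the separations of Rnf10 and Zfp598 given above and adds nothing to them. All ratios of Rnf10 share the same Rnf10 counts. Set against each of the other tested genes in turn, the ratio of Rnf10 was lower without overlap for 32.8% of them and higher without overlap for 0.72%. The ratio of Rnf10 to Usp10 was 2.87, 1.82 and 2.13 in sgLTN1 and 1.86, 3.19 and 2.45 in sgNT, and the groups overlapped. The ratio of G3bp1 to G3bp2 was 0.562 ± 0.0276 in sgLTN1 and 0.545 ± 0.0252 in sgNT (SD, n = 3 each), and the groups overlapped.

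**Figure D4:**
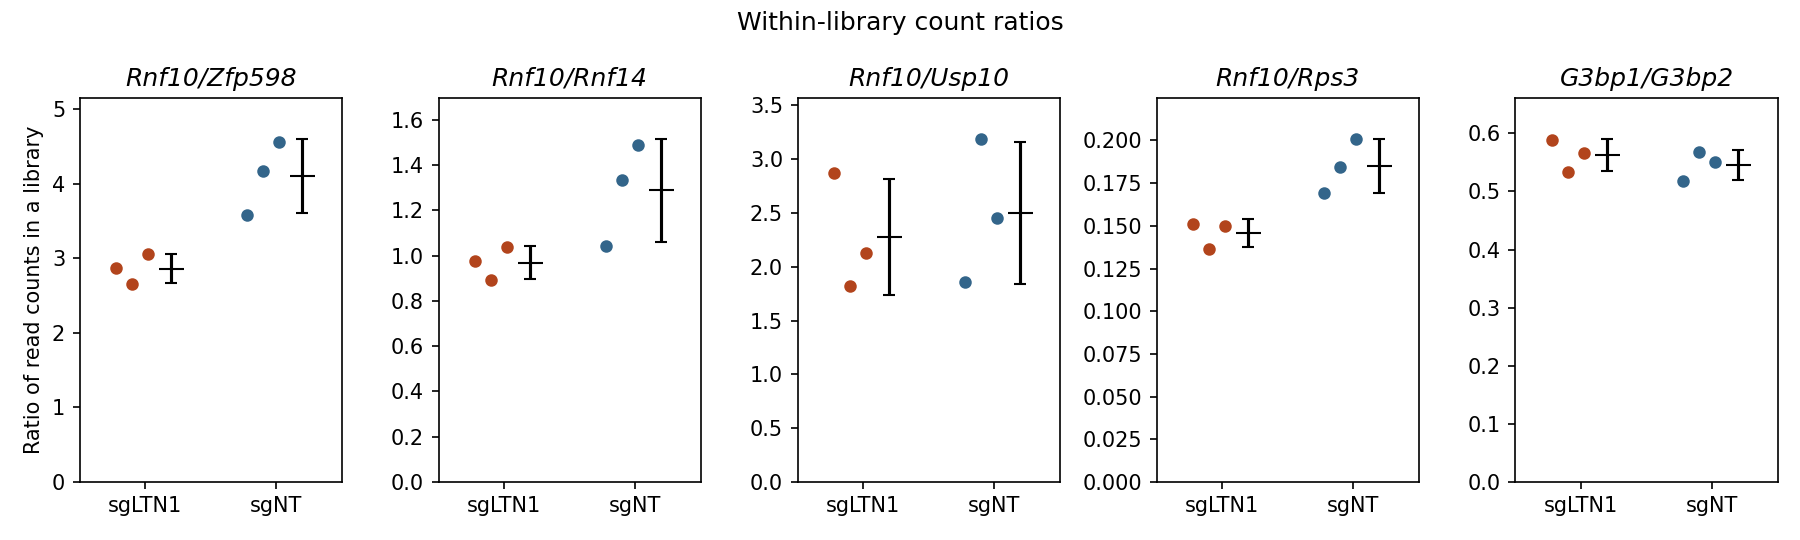
Ratio of read counts of the 2 named genes within each library, on axes that start at 0; points are libraries 1 to 3 from left to right, sgLTN1 in orange and sgNT in blue, and bars give mean ± SD (n = 3 per group). The sgLTN1 points lie below all sgNT points for Rnf10 over Zfp598 (2.66 to 3.06 against 3.58 to 4.57), over Rnf14 and over Rps3, and overlap them for Rnf10 over Usp10 and G3bp1 over G3bp2.

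Over the 6 libraries, the genes whose log2 CPM was most like that of Rnf10 were Tnxb (Pearson r = 0.989), Sem1 (0.987) and Mycbpap (0.984), among 7513 other tested genes that averaged 10 CPM or more. In all, 47 genes exceeded 0.95. With 6 libraries in 2 groups such values describe only how levels vary together over these libraries and are given with no test. Tnxb read 17.5 ± 3.48 CPM in sgLTN1 and 30.1 ± 10.3 CPM in sgNT, and Mycbpap 20.5 ± 4.41 CPM in sgLTN1 and 35.4 ± 11.6 CPM in sgNT (SD, n = 3 each); the adjusted p of both was 0.131 in edgeR's test. For Usp10 the closest were Ndufa11 (0.965), Mau2 (0.954) and Nfix (0.951), and 4 genes in all exceeded 0.95.

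The genes around these enzymes were read from 5 lists, 50 genes in all, and every one had enough counts to be tested. With edgeR none passed an adjusted p of 0.05 (0.18% of all tested genes did), and 1 had an unadjusted p under 0.05 (15.6% of all tested genes). Their log2 fold changes had a median of -0.04, with 19 above 0 and 31 below, and in 5 of the 50 the groups did not overlap (20.2% of all tested genes).

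The 40S proteins that carry the marks, with the docking protein gene Rack1, had a median of 0.01 over 5 genes. Rps3 read 209, 207 and 222 CPM in sgLTN1 libraries 1 to 3, against 199, 218 and 216 CPM in sgNT libraries 1 to 3. Its log2 fold change was 0.01 (SE 0.06), and the 95% interval keeps it between 0.914 and 1.11 of the sgNT level. Rack1 was at 0.08 (SE 0.07, adjusted p of 0.622), and Rps2, the gene for uS5, at -0.54 (SE 0.39, adjusted p of 0.558). Rps2 had only 7 to 17 counts in a library, and its count is uncertain where near-identical copies of the gene share reads, which was not tested. It met the count minimum in fewer sgLTN1 than sgNT libraries, so the filter favoured its sign. Ubiquitin-coding genes and the A-site factors had a median of -0.03 over 8 genes. The polyubiquitin gene Ubb was at -0.13 (SE 0.08, adjusted p of 0.435).

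Ubiquitin-activating and conjugating enzymes had a median of -0.05 over 9 genes. Ube2n, which builds chains linked through lysine 63 of ubiquitin, was at -0.14 (SE 0.09, adjusted p of 0.492), and the conjugating enzyme gene Ube2d2a at 0.32 (SE 0.33, adjusted p of 0.702) on 9 to 45 counts in a library. Collision sensing and splitting factors had a median of -0.10 over 15 genes, 11 of them below 0. Ascc2, which encodes the ubiquitin-binding subunit of the complex that splits collided ribosomes, read 19.8 ± 1.40 CPM in sgLTN1 and 22.6 ± 0.808 CPM in sgNT (-0.19, SE 0.10, adjusted p of 0.373). Abce1, the ATPase gene for splitting after termination, read 65.9 ± 3.81 CPM in sgLTN1 and 72.7 ± 2.43 CPM in sgNT (-0.14, SE 0.07, adjusted p of 0.392). In the same list Eif2ak4, the gene of the kinase GCN2, chosen after its values were seen, read 9.00 ± 0.406 CPM in sgLTN1 and 7.46 ± 0.608 CPM in sgNT (0.25, SE 0.15, adjusted p of 0.448). In 3 of the 15 genes the groups did not overlap, 2 lower (Ascc2 and Abce1) and 1 higher (Eif2ak4), where 10.1% of all tested genes showed this in each direction, and none of the 3 passed the threshold.

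The partners of G3BP and the genes of 40S maturation had a median of -0.02 over 13 genes. Nob1, the endonuclease gene that completes the 18S rRNA of the 40S subunit, had the lowest p of the 50. It read 13.8, 11.8 and 12.7 CPM in sgLTN1 libraries 1 to 3, against 15.8, 16.6 and 18.3 CPM in sgNT libraries 1 to 3. Its log2 fold change was -0.40 (SE 0.12), with an unadjusted p of 0.00626 and an adjusted p of 0.162 in edgeR's test, close to the values of Rnf10. Tsr1, a 40S assembly factor gene, was at 0.18 (SE 0.11, adjusted p of 0.448).

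**Figure D5:**
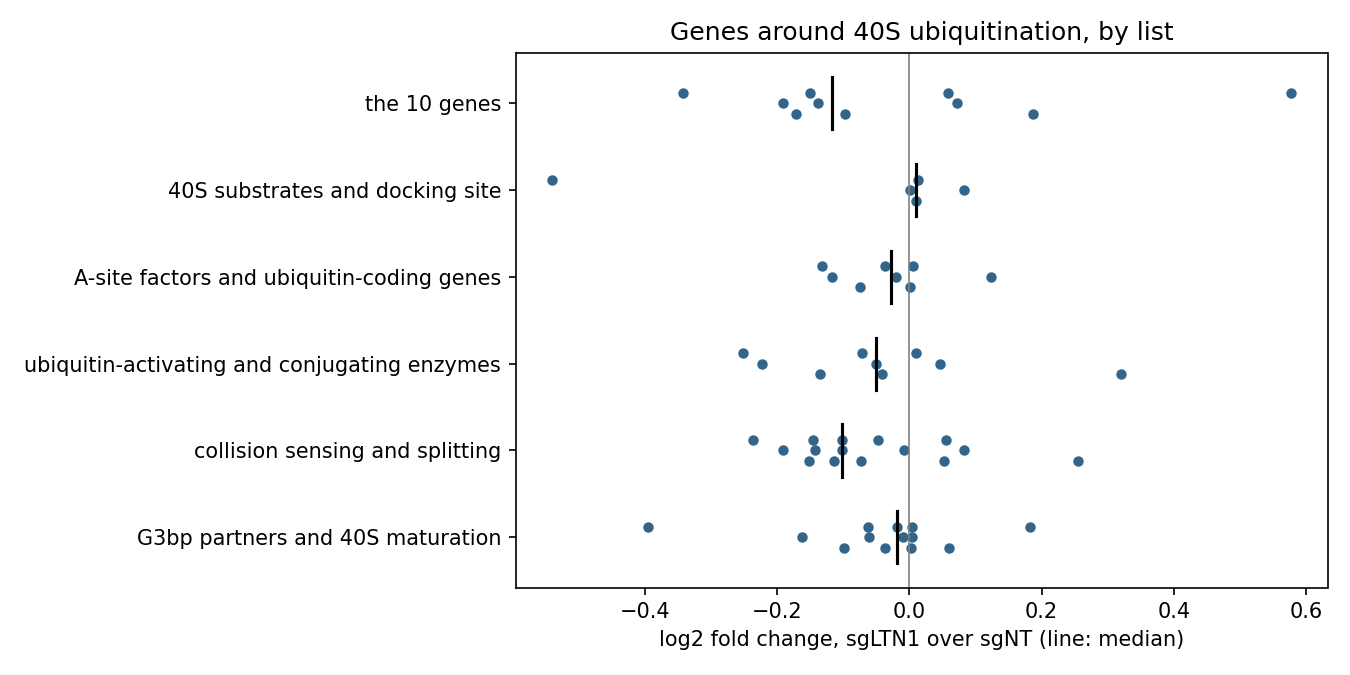
Log2 fold change, sgLTN1 over sgNT, of each tested gene (points, spread vertically for legibility) in the 10 genes and in 5 lists of surrounding genes; black lines are medians. Medians lie between -0.12 for the 10 genes and 0.01 for the 40S substrates, and no gene shown passed an adjusted p of 0.05.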

How the data were processed

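Ribosome footprints of 6 MIN6 libraries were used, grouped by the genotype in the labels. The authors deposited whole-number read counts per gene; the tools named with build GRCm39 include featureCounts 2.12.3, STAR 2.7.11a and UMI-tools 1.1.2, per the submitters' processing notes, with roles and settings not given in the sources used here. The authors' deposited DESeq2 (1.38.3) table holds, per the file headers, log2 fold changes, a mean signal over libraries, a Wald score and p-values; its fold changes run in the same direction as the counts.

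In R 4.3.3, edgeR 4.0.16 (filterByExpr, TMM, quasi-likelihood test, group as the only term) was fitted to all 12782 genes that passed the filter, with Benjamini-Hochberg adjustment over all of them and a threshold of 0.05. Standard errors and 95% intervals come from the test statistic. They can be too narrow where replicates differed by less than counting alone gives, as for Zfp598, whose p is larger than its standard error implies. The log2 CPM values used a prior count of 2. Alternatives were DESeq2 1.42.0, limma 3.58.1 (voom), other scalings, no filter, a replicate block and each library left out. The test was first tested on simulated data. Replicates differed by more than sampling noise (chi-square per degree of freedom of 2.61 or more). All libraries share 1 batch label. Deviations of same-numbered libraries from their group means had correlations of -0.0483 to 0.0884. Values this near 0 do not decide whether the numbers are pairs. They were not taken as pairs in the main fit, and the replicate block was an alternative.

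Members and lists were chosen with earlier results of these data known. Named genes are the members, Ltn1, Rps3, the 2 genes with the smallest p in each of the 5 lists, and the 3 genes most like Rnf10 and Usp10. A gene that this rule names is not reported here, and the counts over the lists include it. A RefSeq table of GRCm38.p6 served only to find overlapping genes. Gene lengths were not used, so levels were not compared between genes. Counts may include PCR copies, so counting errors are minimums.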

Additional observations from a re-analysis of the deposited data

How the results depend on the processing

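The number of members past the threshold was 0 in all 13 alternatives, and Rnf10 kept its direction in each, with log2 fold changes of -0.42 to -0.26. It stayed short of the threshold in the 12 that gave it an adjusted p. For the other members, values near 0 changed sign: Rnf14 to -0.0035 and Riok3 to -0.018 with total counts. With 1 library left out, Riok3 lay between -0.030 and 0.16, below 0 without sgLTN1 library 1. Otud3 lay between -0.45 and 0.24, above 0 without sgLTN1 library 2 (0.08) and without sgNT library 2 (0.24). The cause was not tested. The count over all tested genes, 23 of 12782 as reported, was less steady, and the number of tested genes differed between settings. It was 42 of 12782 with total counts, 40 of 12782 with limma voom and 222 of 20854 with no filter on low counts. With DESeq2 it was 227 of the 2697 genes that received an adjusted p. With the replicate block it was 609 of 12782, and 0 of the 10 members were among them. In that edgeR fit Rnf10 had an adjusted p of 0.0821, and 2 members, Rnf10 and G3bp2, had an unadjusted p under 0.05. Each library correlated best with its own number in 3 of 6 cases, so the numbers are not shown to pair the libraries. Leaving out 1 library gave 4 of 12636 tested genes (without sgLTN1 library 2) to 333 of 13456 (without sgLTN1 library 3). With DESeq2, 8 of the 10 members received no adjusted p. Depth limits Usp21 and Otud3 most, with 1 to 48 counts in a library.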
